A study of Mus musculus with 6 samples.

Results

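The 10 genes described here encode proteins of the smooth muscle contractile apparatus: the actins Actg2 and Acta2, the myosin heavy chain Myh11, the light chain Myl9 and its kinase Mylk, and the filament proteins Tagln, Cnn1, Smtn, Lmod1 and Des. They were measured in whole mouse ovaries with and without the receptor for follicle-stimulating hormone (FSH). Members were taken by gene symbol: every probe set of the array whose annotation gives exactly 1 symbol, equal to a member, was used. This gave 16 probe sets for 10 of 10 genes, out of 45101 probe sets and 18193 named genes on the array. Each gene was represented by its brightest probe set on average over the 6 arrays, which was the same one for scaled and for deposited signals.

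Smooth muscle shortens when calcium signals activate myosin light chain kinase, which phosphorylates the regulatory light chain so that myosin can pull on actin filaments. Calponin and transgelin bind those filaments, and leiomodin nucleates new ones. Many of these genes are controlled by serum response factor (SRF), which binds CArG boxes together with myocardin. In the ovary such cells lie in the walls of blood vessels and in the theca externa around follicles, and contraction of the follicle wall is part of ovulation.

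The WT group held 3 samples and the FORKO group 3 samples, each from both ovaries of female mice aged 8 months. FORKO mice lack all variants of the FSH receptor in every cell, and WT and FORKO animals came from matings of heterozygotes on the background named 129T2 svEmsJ. The titles and genotype labels set the groups, while free-text fields of the FORKO samples speak of wild type. Each sample had its own Affymetrix Mouse Genome 430 2.0 array, and the labels call the samples biological replicates without saying how many mice gave each one, so the tests measure only the spread between these samples.

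As a check of the labels, Fshr, the FSH receptor, read 99.6, 59.4 and 119 on WT replicates 1, 2 and 3 and 1.20, 11.2 and 11.7 on the FORKO arrays. Signals are array intensities after scaling each array to the same trimmed mean, and 11199 genes passed a filter on dim signals, of which 94 were called lower and 146 higher in FORKO ovaries. FORKO replicate 1 stood apart: its log2 signals correlated at 0.934 to 0.936 with the other FORKO arrays, which correlated at 0.976 with each other, against 0.966 to 0.969 among WT arrays. In whole tissue, fewer cells of a type and less RNA per cell cannot be told apart.

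Actg2 was the only contractile gene whose difference between the groups passed the test. Of the 10 genes, 8 passed the dim filter, and of these Actg2 fell, 7 did not pass the test and 0 rose (limma with Benjamini-Hochberg adjustment over all probe sets, adjusted p under 0.05). Across all genes tested, 0.839% were called lower and 1.30% higher, and 1 of 8 genes is too few to compare with these shares. Without adjustment, 4 of the 8 had a limma p under 0.05, all with lower means in FORKO ovaries, beside 8.16% of all genes tested for that direction and 16.8% for either. The median change of the 8 was -0.46 on the log2 scale, with 6 negative and 2 positive, beside a median of -0.02 over all genes, 52.6% of which were negative. The highest FORKO array was below the lowest WT array for 3 of the 8 genes (Actg2, Cnn1 and Myh11), as it was for 12.0% of all genes tested. The reverse held for 0 of the 8 and for 10.7% of all genes. Cnn1 passed the dim filter only through its WT arrays, so it had to differ and adds nothing to these counts.

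**Figure D1:**
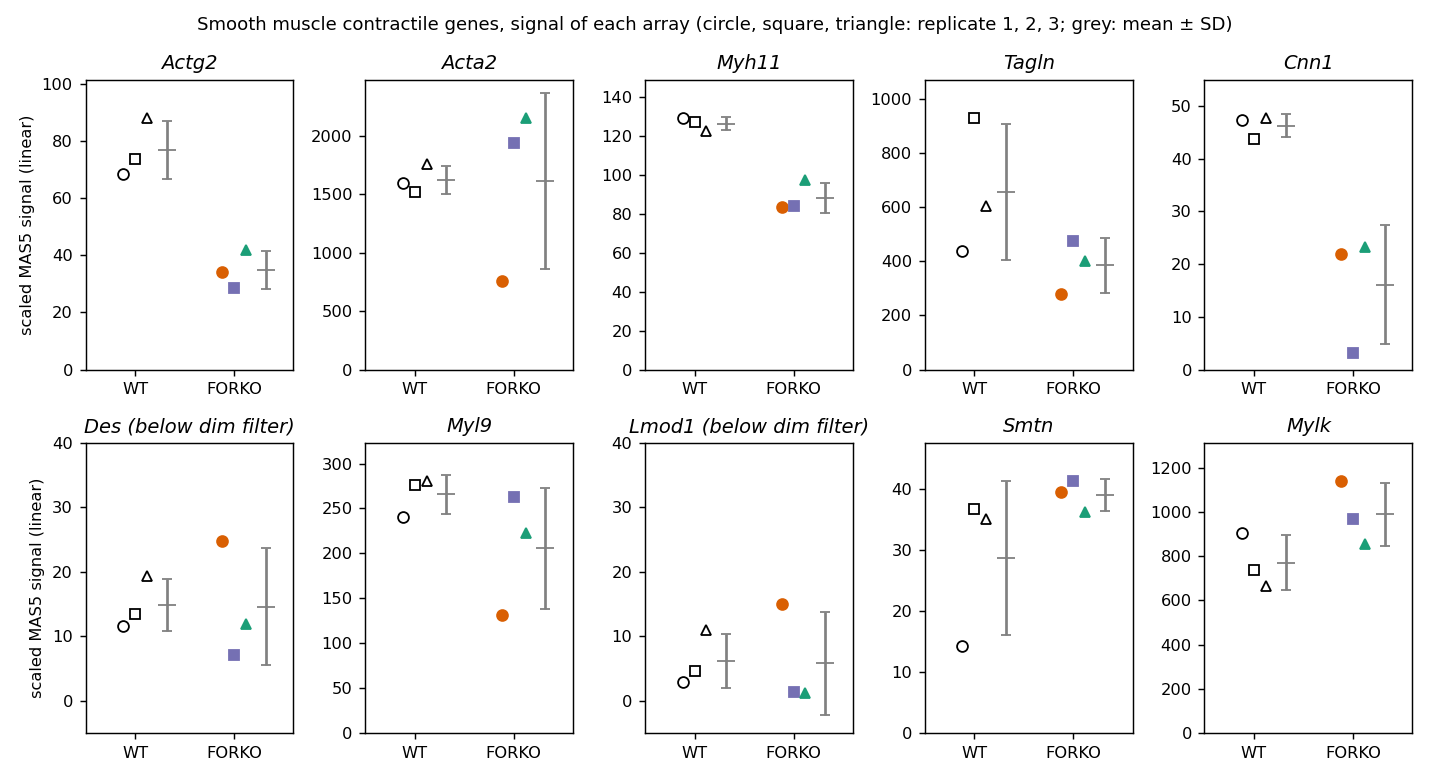
Scaled signal (linear axis, arbitrary units) of each of the 3 WT arrays (open symbols) and 3 FORKO arrays (filled symbols) for the 10 genes, with the group mean ± SD in grey; circles, squares and triangles are replicates 1, 2 and 3. Actg2, Myh11 and Cnn1 separate the groups, while for Acta2 FORKO replicate 1 reads 755 and the other 2 FORKO arrays read 1935 and 2157, above all WT arrays.

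Among the actins, the enteric gamma actin gene Actg2, which is expressed in smooth muscle of gut, uterus and vessels, showed the clearest difference. Its probe set read 68.5, 73.7 and 88.3 on WT replicates 1 to 3 and 34.3, 28.6 and 41.9 on FORKO replicates 1 to 3. No FORKO array came near the WT range. The mean signal fell from 76.8 ± 10.3 to 34.96 ± 6.67 (SD, n = 3 in each group), which is 0.455 of the WT mean, a log2 change of -1.03 ± 0.21 (SE; limma adjusted p = 0.0438). An exact permutation test of this gene alone (two-sided) gave p = 0.1, which is as low as 3 arrays against 3 can go. The call was close to the threshold: the adjusted p was 0.109, 0.155 and 0.162 without WT replicates 1, 2 and 3, 0.107 and 0.0708 without FORKO replicates 2 and 3, and 0.0275 without FORKO replicate 1. It was also lost with no dim filter (limma adjusted p = 0.0959) and with arrays scaled to bacterial spikes (0.0821), and the log2 change ranged from -1.15 to -0.82 over 17 alternatives.

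Acta2, the alpha actin of vascular smooth muscle and of contractile stromal cells, behaved otherwise. The WT arrays read 1601, 1516 and 1756, a narrow range, and the FORKO arrays read 755, 1935 and 2157. FORKO replicate 1 was the lowest of the 6 arrays and the other FORKO arrays were the 2 highest. The group means were almost equal, 1624 ± 122 and 1616 ± 753 (SD, n = 3 in each), and the log2 change of -0.14 ± 0.33 (SE) did not pass (limma adjusted p = 0.891). Without FORKO replicate 1 it was 0.33 and still did not pass (limma adjusted p = 0.298), and with arrays scaled to bacterial spikes it was 0.03. By its suffix this probe set holds probes that match more than 1 transcript, so signal from other actins cannot be separated from that of Acta2. The 2 other Acta2 probe sets were dim on every array, at 0.519 to 11.8, and were not tested.

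Myh11, the smooth muscle myosin heavy chain and a marker of mature smooth muscle, was lower in FORKO ovaries without passing the test. It read 129, 127 and 122 on the WT arrays and 83.2, 83.7 and 97.1 on the FORKO arrays. The groups did not overlap, and the spread within each was small. Means were 126 ± 3.53 and 88.0 ± 7.87 (SD, n = 3 in each), with a log2 change of -0.50 ± 0.17 (SE; limma adjusted p = 0.202). A second, dim Myh11 probe set read 5.37 to 11.5 in WT and 3.59 to 7.87 in FORKO samples, so its groups overlapped.

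Myl9, the regulatory light chain that is phosphorylated during contraction, followed Acta2 in which array was low. It read 240, 276 and 281 in WT samples and 131, 262 and 223 in FORKO samples. FORKO replicate 1 was far below the rest, and FORKO replicate 2 lay within the WT range. Its log2 change of -0.41 ± 0.24 (SE; limma adjusted p = 0.489) became -0.13 without FORKO replicate 1.

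Mylk, the gene of myosin light chain kinase, is also transcribed in nonmuscle cells and from an internal start as telokin, and its probe sets gave different pictures. The brightest read 908, 738 and 665 in WT samples and 1142, 971 and 857 in FORKO samples. The lowest FORKO array lay just below the highest WT array, and the log2 change of 0.36 ± 0.17 (SE) did not pass (limma adjusted p = 0.374). A probe set of intermediate signal read 226 to 269 in WT and 220 to 247 in FORKO samples, a log2 change of -0.02 (limma adjusted p = 0.970). The dimmest, which missed the filter and was not tested, read 9.94 to 16.6 in WT and 3.70 to 7.98 in FORKO samples, without overlap. Which transcript each probe set reads is not given in the sources used here.

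Among the proteins bound to actin filaments, Cnn1, which encodes the smooth muscle calponin that restrains myosin activity, had the largest mean difference of the 8, a rank that rests on FORKO replicate 2. It read 47.3, 43.7 and 47.8 in WT samples and 21.9, 3.19 and 23.3 in FORKO samples. All FORKO arrays were below all WT arrays, and FORKO replicate 2 was by far the lowest. The FORKO mean was below the 20.4 that the dim filter required, so Cnn1 passed it only through its WT arrays. A difference was thus built in, and the tests of Cnn1 are no support for one. The means were 46.3 ± 2.23 and 16.1 ± 11.2 (SD, n = 3 in each), with a log2 change of -1.43 ± 0.42 (SE; limma adjusted p = 0.140). Without FORKO replicate 2 the log2 change was -0.88 (limma adjusted p = 0.134), smaller than that of Actg2 (-0.91), and without FORKO replicate 1 it was -1.69 and passed (0.0323). Cnn1 is a dim probe set, where the added pseudocount matters: the change was -1.83 with a pseudocount of 1 and -0.93 with the pooled median signal as pseudocount.

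Tagln, which encodes the calponin-related protein transgelin (SM22), varied widely among WT samples. It read 437, 931 and 604 there and 277, 476 and 401 in FORKO samples. WT replicate 1 lay below FORKO replicate 2, so the groups overlapped, although each FORKO array was below the WT array with its own replicate number. The difference was -0.73 ± 0.28 on the log2 scale (SE; limma adjusted p = 0.272). With the replicate number as a block it passed (limma adjusted p = 0.0361).

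Smtn, which encodes the cytoskeletal protein smoothelin of contractile smooth muscle, did not share the lower FORKO values. It read 14.2, 36.7 and 35.2 in WT samples and 39.6, 41.4 and 36.2 in FORKO samples. The FORKO arrays lay close together, and only WT replicate 1 was clearly below them. Its log2 change, 0.46 ± 0.30 (SE; limma adjusted p = 0.554), was 0.10 without WT replicate 1.

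Lmod1 and Des did not reach the mean signal of 20.4 that the filter required, so neither was tested. Lmod1, the leiomodin of smooth muscle, read 2.91 to 10.9 in WT samples and 15.1, 1.28 and 1.16 in FORKO samples. Des, the intermediate filament protein desmin, read 11.6 to 19.3 in WT samples and 24.8, 7.11 and 11.9 in FORKO samples on its brighter probe set. For both genes FORKO replicate 1, which was lowest for Acta2, Myl9, Tagln and Myh11, was the highest of the 6 arrays. Of the 8 tested genes, 4 had their lowest value on FORKO replicate 1, compared with 25.9% of all genes tested.

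By FORKO array, the median difference of the 8 genes from their WT means was -0.95 in replicate 1, -0.20 in replicate 2 and -0.30 in replicate 3, beside medians of -0.05, -0.0011 and 0.0015 over all genes. Without FORKO replicate 1 the median change of the 8 was -0.30, and 2 passed (Actg2 and Cnn1). Of these, Cnn1 had passed the dim filter only through its WT arrays. The tested genes differed in pattern. Actg2, Cnn1 and Myh11 were lower on every FORKO array, Acta2 and Myl9 were below the WT range on FORKO replicate 1 and, for Myl9, by less on replicate 3, and Mylk and Smtn had higher FORKO means. This grouping was made after the values were seen and carries no test.

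The stretch before the start site is shown for Acta2 and Myl9, because theirs were the only windows among the members in which a CArG box, the DNA element bound by SRF, was found. RefSeq windows on GRCm38.p6, from 250 bases before to 50 bases after a start site, were at hand for 7 of the 10 genes, and not for Actg2, Myh11 and Tagln. A CArG box is a CC, a core of 6 bases that are A or T, and a GG, and it reads the same way on both strands. A strict box was found in 1 of the 7 windows (Myl9) and in 1.63% of 32851 windows of all genes. With 1 core base other than A or T allowed, boxes were found in 2 of 7 (Acta2 and Myl9) and in 9.98% of all windows. Each stretch below runs from 180 to 21 bases before the start site, 5′ to 3′ on the gene's strand, with the boxes in capitals; Acta2 lies at chr19:34255394-34255553 on the minus strand and Myl9 at chr2:156775284-156775443 on the plus strand.
Acta2: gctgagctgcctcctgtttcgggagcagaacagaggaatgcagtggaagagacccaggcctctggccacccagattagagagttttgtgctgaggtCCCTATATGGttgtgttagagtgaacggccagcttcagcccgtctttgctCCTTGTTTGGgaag
Myl9: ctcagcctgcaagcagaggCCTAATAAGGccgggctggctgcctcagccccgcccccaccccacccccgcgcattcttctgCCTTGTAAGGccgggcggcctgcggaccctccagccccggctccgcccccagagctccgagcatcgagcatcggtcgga
The Acta2 boxes, CCCTATATGG and CCTTGTTTGG, begin 84 and 34 bases before the start site, and each has 1 core base that is not A or T. In Myl9 the strict box CCTAATAAGG begins 161 bases before the start site and CCTTGTAAGG begins 99 bases before it. The gene table draws both genes from further upstream than these start sites, so the Acta2 stretch and the end of the Myl9 stretch may be transcribed from another start. The letters describe these windows only, and no binding was measured here.

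The nonmuscle relatives of these proteins build the cytoskeleton of nearly all cells, and their difference from the contractile genes was not tested. Of 16 such genes, 13 passed the dim filter and 0 passed the test (limma; 0 also at an unadjusted p under 0.05), with a median change of 0.16 on the log2 scale, which was positive under all 4 other scalings and 0.09 without WT replicate 1. Of the 13, 10 had a positive and 3 a negative change. Actg1, the cytoplasmic gamma actin, read 3343, 3519 and 3328 in WT samples and 3889, 3823 and 4074 in FORKO samples, without overlap and with a log2 change of 0.21 (limma adjusted p = 0.420). The Actg1 probe set has the same suffix as that of Acta2, so signal from other actins cannot be separated from its own. Actb, the cytoplasmic beta actin, read 3573 to 4092 in WT and 3595 to 4177 in FORKO samples.

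The nonmuscle myosin heavy chain genes Myh9 and Myh10 had log2 changes of 0.09 and -0.03, and the light chain genes Myl12a, Myl12b and Myl6 had 0.09, 0.34 and 0.37. Cnn2, Cnn3 and Tagln2, relatives of calponin and transgelin, had 0.27, -0.12 and 0.54, and Tagln2 passed only without FORKO replicate 1. A dimmer Cnn3 probe set, chosen after its values were seen, read 890 to 1022 in WT and 714 to 844 in FORKO samples, without overlap (log2 change -0.24, limma adjusted p = 0.492). The tropomyosin genes Tpm3 and Tpm4 had 0.16 and 0.03, and the intermediate filament gene Vim had 0.27. Myh14, Lmod2 and Lmod3 missed the dim filter. The range over the 13 genes was -0.12 to 0.54, against -1.43 to 0.46 over the 8 contractile genes.

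**Figure D2:**
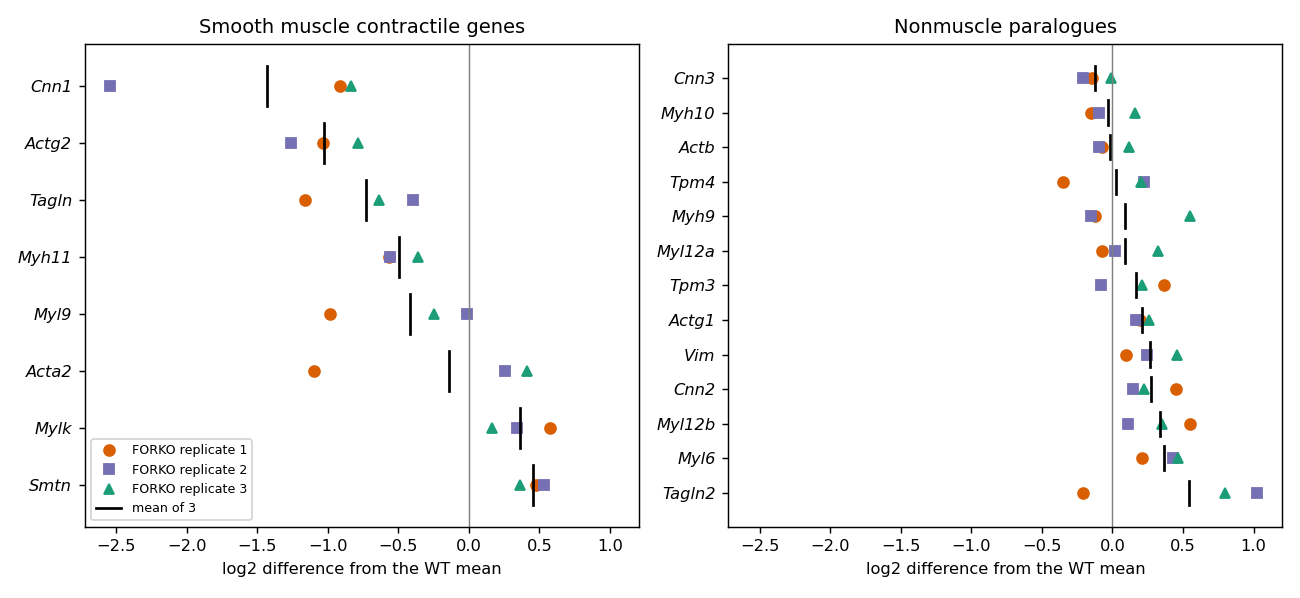
Log2 difference of each FORKO array from the WT mean (horizontal axis, log2 units) for the 8 contractile genes and the 13 nonmuscle relatives past the dim filter; black bars are means of the 3 FORKO arrays. The contractile genes run from -1.43 (Cnn1) to 0.46 (Smtn), and Acta2 and Myl9 have FORKO replicate 1 far to the left of the other arrays.

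Other genes of the contractile machinery held few differences that passed. Of 20 further actin-binding, dense body and adhesion genes, 19 passed the dim filter and 0 passed the test (4 of 19 at an unadjusted p under 0.05, a share near the 16.8% of all genes; median change -0.01, positive with spike scaling, and -0.09 to 0.17 with each array left out). Synm, which encodes synemin, a desmin-associated intermediate filament protein, read 221, 443 and 159 in WT samples and 96.1, 73.0 and 88.2 in FORKO samples. These groups did not overlap, and its log2 change was -1.49 ± 0.32 (SE; limma adjusted p = 0.0557). Tpm2, the beta tropomyosin of muscle, read 409 to 793 in WT and 220 to 431 in FORKO samples (log2 change -0.76, limma adjusted p = 0.268). Both passed with the replicate number as a block, which gave 0 rises and 2 falls in this list. Without FORKO replicate 1, Synm fell and Flna, the actin crosslinker filamin A, rose.

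Of 17 genes of myosin phosphorylation, calcium and cGMP signalling with a probe set, 14 passed the dim filter and 0 passed the test (1 of 14 at an unadjusted p under 0.05, beside 16.8% of all genes; median -0.08, positive with spike scaling). Gucy1b1, a subunit of the nitric oxide receptor guanylate cyclase, read 68.0 to 84.9 in WT samples and 45.9 to 53.9 in FORKO samples, a log2 change of -0.54 without overlap (limma adjusted p = 0.208). Cacna1c, the L-type calcium channel, read 19.7, 63.8 and 56.0 in WT samples and 9.62, 41.4 and 45.0 in FORKO samples. Only FORKO replicate 1 lay outside the WT range.

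Among transcription factors of smooth muscle, Klf4, known to repress contractile genes in cultured smooth muscle cells and also expressed in epithelia, rose. It read 112, 53.2 and 91.0 in WT samples and 431, 242 and 280 in FORKO samples. All FORKO arrays were far above the highest WT array, with a log2 change of 1.84 ± 0.29 (SE; limma adjusted p = 0.0169). A dimmer Klf4 probe set read 2.81 to 23.4 in WT samples and 27.5 to 33.7 in FORKO samples. It passed the dim filter only through its FORKO arrays, so it had to differ, and is given with no test. The call of the brightest Klf4 probe set was lost without WT replicate 2 (limma adjusted p = 0.0691), WT replicate 3 (0.0678) or FORKO replicate 3 (0.0525). It was also lost with the mean of all Klf4 probe sets, which includes the dimmer one (log2 change 1.44, limma adjusted p = 0.0652). The other 13 tested genes of this list of 15 did not pass, and the median over the 14 was 0.12, positive under all 4 other scalings and 0.21 without FORKO replicate 1.

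SRF and its coactivators, singled out after their values were seen, did not pass. Srf itself read 161 to 264 in WT samples and 210 to 261 in FORKO samples. Myocd, which encodes myocardin, read 136, 78.8 and 143 in WT samples and 51.4, 168 and 165 in FORKO samples. Like Acta2, Myocd was lowest on FORKO replicate 1 and highest on the other 2 FORKO arrays, and its log2 change was -0.03 ± 0.41 (SE; limma adjusted p = 0.986).

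Of 12 ligands and receptors for contraction with a probe set, 8 passed the dim filter and 0 passed the test (4 of 8 at an unadjusted p under 0.05, beside 16.8% of all genes; median 0.19, and 0.06 and 0.07 without WT replicate 1 and FORKO replicate 1). Of these 8, Avpr1a and Edn1 passed the filter only through their FORKO arrays, so they had to differ, and they add nothing to these counts. Avpr1a, a vasopressin receptor, read 6.95, 1.35 and 3.40 in WT samples and 103, 21.5 and 15.5 in FORKO samples, and is given as values with no test. Ptgfr, the receptor for prostaglandin F2-alpha, read 71.5, 68.4 and 94.4 in WT samples and 0.547, 52.6 and 43.8 in FORKO samples (limma adjusted p = 0.309). The Ptgfr groups did not overlap, and FORKO replicate 1 was by far the lowest array.

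Oxtr and Edn1 were picked out of this list after their values were seen. Oxtr, the oxytocin receptor, read 98.7, 239 and 150 in WT samples and 58.4, 70.8 and 54.5 in FORKO samples (log2 change -1.25, limma adjusted p = 0.0690). Edn1, the constrictor peptide endothelin 1, read 7.91 to 15.05 in WT and 27.3 to 44.9 in FORKO samples and is likewise given with no test. Without FORKO replicate 1, Oxtr fell and the endothelin receptor gene Ednrb rose.

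Markers of other cells moved with the contractile genes on FORKO replicate 1, and their part in the result was not tested. Of 10 pericyte genes, which mark mural cells of small vessels, 7 passed the dim filter and 0 passed the test. At an unadjusted limma p under 0.05 there was 1 of 7, beside 16.8% of all genes. All 7 tested genes had a negative change (median -0.27, negative under all 4 other scalings), beside 52.6% of all genes. The median was -0.14, -0.53, -0.17 and -0.16 without FORKO replicate 1, FORKO replicate 2, WT replicate 2 and WT replicate 3. Their lowest value was on FORKO replicate 1 for 6 of 7, beside 25.9% of all genes tested. The summed signal of the 10 was 958 to 1189 in WT samples and 414, 1192 and 972 in FORKO replicates 1, 2 and 3. Pdgfrb, the receptor for platelet-derived growth factor B, read 395 to 434 in WT samples and 115, 333 and 285 in FORKO samples (log2 change -0.90, limma adjusted p = 0.249). Cspg4, the NG2 proteoglycan, read 42.2 to 56.8 in WT samples and 24.7, 54.9 and 37.1 in FORKO samples. The means of both were lower in FORKO ovaries, and on these probe sets the FORKO arrays stood in the same order as for Myl9. A dimmer Pdgfrb probe set read 60.3 to 64.8 in WT samples and 6.01, 22.2 and 27.4 in FORKO samples, another order. It passed the dim filter only through its WT arrays and is given with no test.

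Rgs5 and Abcc9, pericyte genes chosen after their values were seen, read 143 to 282 and 180 to 248 in WT samples. In FORKO replicates 1, 2 and 3 Rgs5 read 90.6, 345 and 221, and Abcc9 read 71.9, 295 and 304. On FORKO replicate 1 both were therefore below all WT arrays, as Acta2 and Myl9 were, and on replicate 2 above them all.

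Endothelial cells line the same vessels, and their genes are given beside the pericyte genes with no test of a difference between the lists. Of 10, 8 passed the dim filter and 0 passed the test (median 0.17, positive under all 4 other scalings, and 0.29 without FORKO replicate 1), and their summed signal was 1161 to 1252 in WT and 1399 to 1710 in FORKO samples. Vwf, von Willebrand factor, read 89.3 to 134 in WT samples and 387, 177 and 191 in FORKO samples (log2 change 1.07, limma adjusted p = 0.118), and Esam, an endothelial adhesion molecule, had a log2 change of 0.36. Pecam1 and Tie1 missed the dim filter.

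The medians of stromal fibroblast, theca and granulosa genes were lowest on FORKO replicate 1 as well. This held for every list with tested genes except the ligands and receptors of contraction. Of 9 tested fibroblast genes 0 passed (median -0.55, by array -0.92, -0.46 and -0.29). At an unadjusted limma p under 0.05 there were 6 of 9, beside 16.8% of all genes. The summed signal over 10 genes was 9001 to 11189 in WT and 8487 to 11073 in FORKO samples. Lum and Col1a1 had log2 changes of -1.82 and -0.94, but the list was mixed, with 7 negative and 2 positive changes (up to 0.47). All FORKO arrays were below all WT arrays for 2 of the 9 and above them for 2, beside 12.0% and 10.7% of all genes. Of 6 tested theca genes 0 passed (median -0.41, by array -0.72, -0.38 and -0.24), and 3 of 6 had an unadjusted limma p under 0.05, beside the same 16.8%. The sums over 7 theca genes were 13778 to 14256 in WT and 10842 to 11608 in FORKO samples. Star and Cyp17a1 had log2 changes of -0.87 and 0.58. Of 8 tested granulosa genes Fshr fell and the other 7 did not pass (median -0.84, by array -2.55, 0.38 and 0.46). Fshr is the gene that FORKO mice lack, and it passed the dim filter only through its WT arrays. It therefore had to differ and adds nothing to this count, although the medians include it. At an unadjusted limma p under 0.05 there were 3 of 8 granulosa genes, Fshr among them, beside 16.8% of all genes. The sum over 9 genes was 10683 to 14766 in WT samples and 5837, 14444 and 15083 in FORKO samples. Amhr2, chosen after its values were seen, did not pass on its brightest probe set. On 2 dimmer probe sets it was higher in FORKO samples without overlap and passed (log2 changes 0.98 and 0.76, limma adjusted p = 0.0349 and 0.0418). The direction of the 3 medians was the same under all 4 other scalings, but without FORKO replicate 1 the fibroblast, theca and granulosa medians were -0.34, -0.26 and 0.48.

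Genes of striated muscle were dim, while the summed oviduct and uterus signal was higher in every FORKO sample. All 16 skeletal and heart muscle genes missed the dim filter, among them Acta1, Actc1, Ckm and Myh7, with sums of 86.4 to 114 in WT and 90.2 to 141 in FORKO samples. Of 9 oviduct and uterus genes, 4 passed the filter and 0 passed the test (median 0.48), and the sums were 263 to 286 in WT and 467 to 541 in FORKO samples. Ovgp1, the oviductal glycoprotein, read 12.7 to 34.4 in WT samples and 27.2, 247 and 184 in FORKO samples, and Emx2, a transcription factor of the reproductive tract, had a log2 change of 0.80. The part of such tissue in the contractile gene values was not tested. Foxj1, Pax8, Hoxa10, Hoxa11 and Msx2 missed the filter. The ratio of 3′ to 5′ signal for Gapdh, which rises as RNA degrades, was 5.34 to 9.62 in WT and 5.24 to 8.93 in FORKO samples, overlapping ranges. For Actb it was 3.93 to 5.45 in WT and 4.12 to 5.27 in FORKO samples. FORKO replicate 1 had the 8.93 for Gapdh, against 5.24 and 6.69 on the other FORKO arrays. For Actb it had 4.38, between the other FORKO arrays. On every array the 3′ signal was thus several times the 5′ signal, so overlap of the groups does not show that the RNA was intact.

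**Figure D3:**
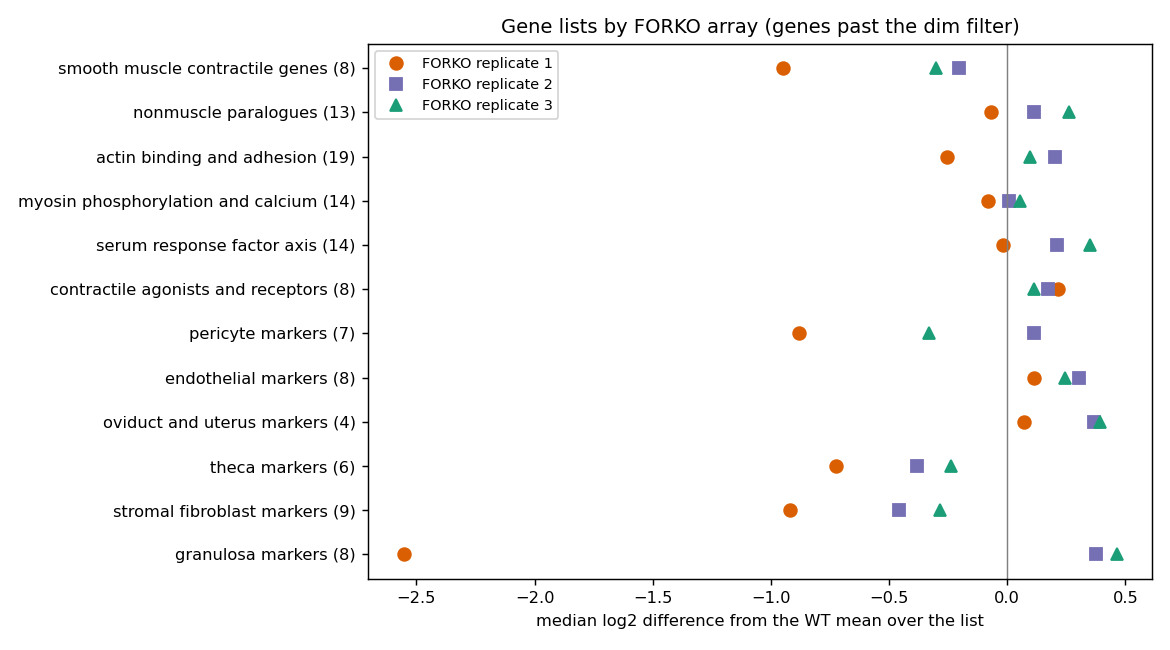
Median log2 difference from the WT mean (horizontal axis) over the genes of each list that passed the dim filter, by FORKO array; the number of such genes is in brackets. FORKO replicate 1 is lowest for every list shown except the ligands and receptors of contraction (0.22). Its median is -0.95 for contractile, -0.88 for pericyte, -0.92 for stromal fibroblast, -0.72 for theca and -2.55 for granulosa genes. In the other lists it is nearer to the WT mean, for example -0.26 for actin-binding genes, -0.07 for nonmuscle relatives and 0.12 for endothelial genes.

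The genes whose profile over the 6 arrays was most like the mean profile of the 8 contractile genes were not muscle genes. By the root mean square difference of centred log2 signals, over 10835 other named genes, the closest were Larp7 (0.04), Ndufa6 (0.05), Mtx1 (0.05), Cntln (0.05) and Igsf11 (0.06). Larp7, an RNA-binding protein, read 137, 150 and 149 in WT samples and 92.0, 101 and 120 in FORKO samples. The mean profile averages genes that differ among themselves, and its FORKO minus WT difference was -0.43 on the log2 scale.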

How the data were processed

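Gene expression was measured in 3 WT and 3 FORKO whole-ovary samples, 1 array each. The deposited values are array intensities, MAS5 signals on a linear scale, per the submitters' processing notes; the MAS5 version and scaling target are not stated in those notes. Each of the 6 arrays was scaled to the mean after trimming 2% at each end, and log2(signal + 5.73) was taken, the pseudocount being the pooled 25th percentile; fold changes of dim probe sets are understated on this scale. After removal of 64 control probe sets, the 22506 probe sets with a mean of at least 20.4 were fitted with limma 3.58.1 in R 4.3.3 (lmFit, eBayes with an intensity trend, two-sided, genotype only), with Benjamini-Hochberg adjustment over all genes' probe sets. The fit was tested on simulated data. Promoters were read with Python 3.11.15 and figures drawn with matplotlib 3.10.9. Arrays give no counts, so their number limits the precision.

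Genes were named from the platform annotation (932 probe sets with several symbols and 9211 with none listed were not named); Entrez identifiers linked 10 of 10 members to RefSeq's GRCm38.p6 genes. The members and the 13 gene lists were chosen with earlier results of these data known. Listed genes not analysed here include Rock2, Itpr1, Ednra, Adra1a, Adra1d, Pax2, Insl3, Lhcgr and Cyp19a1. The text names the members, the nonmuscle relatives, in each other list up to 3 genes that passed or else the 2 largest changes, Fshr, and the 5 closest profiles; genes named beyond this rule were chosen after their values were seen.

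The replicate numbers 1 to 3 are not tied to a litter or day by the labels. After subtracting group means, the WT and FORKO arrays of one number correlated at 0.195, 0.134 and 0.358, each above a threshold of 0.1. The numbers may therefore pair the samples, but this rests on the values alone and was not tested. The tests printed here use no block, and the fit with the replicate number as a block is an alternative. Identical values occurred in 0 of 6 within-group array pairs. Alternatives covered scaling, pseudocount, dim filter, variance model, replicate block, each array left out, and averaging a gene's probe sets.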

Additional observations from a re-analysis of the deposited data

How the results depend on the processing

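Of the 8 tested contractile genes, 1 was called. The count was 0 with arrays scaled to the bacterial spikes, with no dim filter and with a filter at the 75th percentile (which left 5 of the genes, without Actg2), 2 with the replicate block, and 0 to 2 with each array left out in turn. It was 1 under the other alternatives. Over all probe sets, 372 were called; the count was 589 with spike scaling, 221 with no dim filter, 191 with the stricter filter, 691 with the replicate block, and 62 to 864 with each array left out. The share of higher calls was 64.0%, 50.6% with arrays scaled to the same median, and 84.0% with spike scaling, which moved the median of all genes to 0.15. The median change of the contractile genes, -0.46, stayed negative under the 18 alternatives (-0.54 to -0.29); relative to all genes it was -0.44, and -0.43 with spike scaling. The Acta2 log2 change reversed to 0.0311 with arrays scaled to the hybridisation spikes and ranged from -0.42 to 0.33 with each array left out. With the block, Tagln passed beside Actg2, and the calls of the other 6 members did not change; listed genes that also passed include Tpm2, Synm, Fhl1, Oxtr, Vwf, Star, Lum and Amhr2. The list counts under alternatives were run after seeing the data. Dim signals limit what can be said of Cnn1, Des and Lmod1.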
